A study of Mus musculus with 27 samples.

Results

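The neuregulin ligands Nrg1, Nrg2 and Nrg3 and the receptors Egfr, Erbb3 and Erbb4 were followed in nuclei of the mouse hippocampus. Their rows were chosen by symbol, and they make up 6 of the 31053 genes listed in the files. Each of 27 mice gave 1 library of single-nucleus RNA-seq, in which unique molecular identifiers (UMIs, each 1 captured RNA molecule) of pre-mRNA are counted per gene and nucleus. Nuclei were isolated from frozen hippocampi, stained with DAPI and sorted to remove debris. The design combined the P301S transgene, a mutant human tau under the promoter of the prion protein gene Prnp, with a deletion of Cgas, a sensor of cytosolic DNA, in 0, 1 or 2 copies. Without the transgene, 3 males and 2 females were labelled Cgas+/+, 2 males Cgas+/- and 2 males Cgas-/-. With it, P301S Cgas+/+, P301S Cgas+/- and P301S Cgas-/- comprised 3 males and 3 females each. The genotypes came from crosses of F1 litters, with transgenic littermates, and the mice were 9 to 10 months old per the study's methods and 8 to 9 months old per its account of these libraries. Tau is thus overexpressed wherever the promoter is active, and the Cgas deletion is carried by every cell. The study left both groups of 2 mice out of its downstream comparisons.

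Neuregulins are growth factors with an epidermal growth factor-like domain that are made mostly as membrane-bound precursors and are released or exposed by proteolytic cleavage. Their receptors belong to the ErbB family of receptor tyrosine kinases. ErbB4 binds neuregulins and has an active kinase, ErbB3 binds neuregulins but has a weak kinase and signals through a partner receptor, and EGFR binds other ligands such as EGF and TGF-alpha. In the forebrain, ErbB4 is best known from parvalbumin interneurons, where neuregulin signaling shapes excitatory input. In glia, ErbB receptors are known from the oligodendrocyte lineage and from astrocytes.

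All 6 genes were found in the GENCODE vM21 annotation of GRCm38, the assembly of mm10. Nrg1 (ENSMUSG00000062991) lies at chr8:31814551-32884029 on the minus strand, Nrg2 (ENSMUSG00000060275) at chr18:36017652-36197380 on the minus strand and Nrg3 (ENSMUSG00000041014) at chr14:38368952-39473088 on the minus strand. Egfr (ENSMUSG00000020122) lies at chr11:16752203-16918158 on the plus strand, Erbb3 (ENSMUSG00000018166) at chr10:128567523-128589652 on the minus strand and Erbb4 (ENSMUSG00000062209) at chr1:68032186-69108059 on the minus strand. Gene length ranged from 22.1 kb for Erbb3 to 1100 kb for Nrg3. Because intronic reads were counted, levels are compared below within each gene and never between genes.

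The libraries held 46091490 to 79484316 UMIs each, and 204852 of 241938 barcodes were kept, 5840 to 12572 per mouse. Nuclei were grouped by marker genes into 13 classes and, among neurons, into 9 subtypes, each called "like" its type because the names rest on markers alone. The 6 genes were kept out of clustering and out of the marker lists. Excitatory neuron-like nuclei numbered 75478, oligodendrocyte-like 45598, astrocyte-like 26896, inhibitory neuron-like 12369, microglia-like 11404 and oligodendrocyte progenitor-like 6964, and 18659 nuclei stayed unnamed. The names rest on these markers, so marker levels are no separate check of them. In the library labelled P301S Cgas+/+ 3, 52.6% of the kept nuclei stayed unnamed, and in P301S Cgas+/- 1 the share was 26.8%, against at most 14.1% in the others. Pairs of libraries shared 8 to 48 barcode sequences, at most 0.57% of the smaller library. Cgas did not fall in step with its labelled copies: in microglia-like nuclei the libraries labelled P301S Cgas-/- averaged 51.3 ± 6.91 UMIs per 1000000 (SD, n = 6) and those labelled P301S Cgas+/+ 38 ± 11.8 (n = 6). Without the transgene the Cgas-/- libraries averaged 27.3 ± 8.14 (n = 2) and the Cgas+/+ libraries 35.4 ± 2.38 (n = 5). Over all kept nuclei the means were 1.9 ± 0.552 in P301S Cgas-/- and 2.24 ± 0.827 in P301S Cgas+/+, and without the transgene 1.99 ± 0.486 and 1.51 ± 0.217. Reads from outside the deleted part of the gene may still be counted, so these levels do not check the labels. Groups are written as libraries labelled with a genotype, and each direction between Cgas groups rests on the labels.

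Levels are given in CPM, the UMIs of a gene summed over the nuclei of 1 class in 1 mouse, per 1000000 UMIs of those nuclei, for mice with at least 20 such nuclei. In these sums, fewer nuclei that use a gene and less RNA per nucleus cannot be told apart. Levels across classes are a description over mice with no test, and neighbours in an order of levels are called separated only where their means differ by more than the sum of their SDs. This rule ignores that classes come from the same mice, so classes not separated can still differ in most mice.

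Nrg1, the founding ligand of the family, was highest in Cajal-Retzius-like nuclei, the early-born neurons of the outermost layer, at 5790 ± 1490 CPM (SD, n = 12). Excitatory neuron-like nuclei followed at 2190 ± 802 CPM (n = 27), with a lowest mouse of 1130, a median of 2200 and a highest of 3710 CPM. These leading classes were separated, and Cajal-Retzius-like nuclei were higher in 12 of 12 mice that had both. Ependymal-like nuclei held 1310 ± 453 CPM (n = 14) and oligodendrocyte progenitor-like nuclei 1060 ± 361 CPM (n = 27), and neither differed from its neighbour beyond the spread. Oligodendrocyte progenitor-like nuclei exceeded oligodendrocyte-like nuclei (248 ± 129 CPM) in 27 of 27 mice, by a median ratio of 4.11. Inhibitory neuron-like nuclei held 446 ± 114 CPM, and vascular (endothelial-like and pericyte-like) and glial nuclei (oligodendrocyte-like, astrocyte-like and microglia-like) held means between 248 and 314 CPM, with no separated neighbours. The lowest level, 73 ± 34.1 CPM (n = 10), was in choroid plexus-like nuclei.

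Within excitatory neuron-like nuclei, Nrg1 followed the neuron subtype. Cortical-like nuclei held 3300 ± 794 CPM (n = 27), with a range of 1810 to 4860 CPM over mice. Dentate granule-like nuclei held 1030 ± 180 CPM (n = 26), CA1-like 986 ± 394 CPM (n = 27), CA3-like 433 ± 325 CPM (n = 21) and CA2-like 248 ± 230 CPM (n = 6). Cortical-like nuclei were above dentate granule-like nuclei in 26 of 26 mice, by a median ratio of 3.04 (range 1.93 to 5.53), and above CA1-like nuclei in 27 of 27. Dentate granule-like and CA1-like nuclei were not separated, and the former were higher in 15 of 26 mice. Among interneurons, Lamp5-like nuclei (991 ± 511 CPM) were only just separated from Vip-like nuclei (383 ± 95.8), with a difference of 608 against a summed SD of 606 CPM, and were higher in 26 of 27 mice. Vip-like, Sst-like (329 ± 119) and Pvalb-like nuclei (323 ± 152) were not separated. Of all 1891363 Nrg1 UMIs, 81.6% lay in excitatory neuron-like nuclei, 40.2% in the cortical-like subtype, 24.9% in excitatory nuclei without a subtype name (3620 ± 1070 CPM), 9.1% in the dentate granule-like subtype and 6.34% in the CA1-like subtype.

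Nrg2 had a different order. Inhibitory neuron-like (299 ± 51.9 CPM), excitatory neuron-like (253 ± 60.4) and oligodendrocyte progenitor-like nuclei (252 ± 33.5, n = 27 each) were not separated. Within mice, inhibitory neuron-like nuclei were above excitatory neuron-like nuclei in 23 of 27, and the latter above progenitor-like nuclei in 11 of 27. Astrocyte-like nuclei held 126 ± 58.4 CPM, with a lowest mouse of 57.9 and a highest of 287, and oligodendrocyte-like nuclei held 19.1 ± 5.28 CPM. Among excitatory subtypes the dentate granule was first, at 547 ± 52.4 CPM (n = 26), and its lowest mouse, at 449 CPM, stood above every cortical-like value. Cortical-like nuclei held 188 ± 19.2 CPM, CA1-like 86.2 ± 15.7 CPM, CA3-like 51.8 ± 20.9 CPM and CA2-like 10.5 ± 9.82 CPM. The ratio of dentate granule-like to cortical-like nuclei had a median of 2.89 (range 2.38 to 4.11, higher in 26 of 26 mice), and the ratio to CA3-like nuclei had a median of 12 (21 of 21). Nrg1 and Nrg2 thus led in different excitatory subtypes. Lamp5-like nuclei were the highest interneurons for Nrg2 too, at 475 ± 75.8 CPM against 281 ± 45.6 in Pvalb-like, 221 ± 29.5 in Vip-like and 206 ± 27.3 in Sst-like nuclei. Of 247223 Nrg2 UMIs, 36.4% lay in dentate granule-like, 18.6% in cortical-like and 12.3% in inhibitory neuron-like nuclei.

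Nrg3, a neural member of the family with a receptor preference for ErbB4, was spread over all neurons. Its level was 6240 ± 531 CPM in excitatory neuron-like nuclei (range 5420 to 7310), 5470 ± 568 CPM in inhibitory neuron-like nuclei and 4510 ± 648 CPM in Cajal-Retzius-like nuclei, with no separated neighbours among these classes. Within mice, excitatory neuron-like nuclei were above inhibitory neuron-like nuclei in 26 of 27, and the latter above Cajal-Retzius-like nuclei in 12 of 12. Oligodendrocyte progenitor-like nuclei came next at 2150 ± 272 CPM, below Cajal-Retzius-like nuclei in 12 of 12 mice and above oligodendrocyte-like nuclei (953 ± 281 CPM) in 27 of 27. Vip-like interneurons were the highest subtype, at 9350 ± 1590 CPM. They exceeded Sst-like nuclei (5740 ± 631 CPM) by a median ratio of 1.65 in 26 of 26 mice, and Lamp5-like nuclei (4350 ± 359 CPM) by 2.18 in 27 of 27. Across excitatory subtypes Nrg3 varied less than the other ligands, from 5480 ± 395 CPM in CA1-like to 8010 ± 953 CPM in CA2-like nuclei, with no separated neighbours. Subtypes farther apart in the order did differ. CA3-like nuclei (7530 ± 766 CPM) were above CA1-like nuclei in 21 of 21 mice, by a median ratio of 1.37 (range 1.21 to 1.61). CA2-like were above CA1-like nuclei in 6 of 6 mice, and cortical-like above dentate granule-like nuclei in 26 of 26.

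Egfr, the receptor for EGF and related ligands, was highest in fibroblast-like (563 ± 248 CPM, n = 13) and astrocyte-like nuclei (408 ± 55 CPM, n = 27), which were not separated. The astrocyte-like level ran from 299 over a median of 404 to 525 CPM, and it exceeded the oligodendrocyte-like level of 4.48 ± 2.15 CPM in 27 of 27 mice, by a median ratio of 99.2. Inhibitory neuron-like nuclei held 162 ± 38.4 CPM, but the interneuron subtypes fell into a high pair and a low pair. Lamp5-like nuclei held 596 ± 127 CPM (range 309 to 810) and Vip-like nuclei 487 ± 123 CPM (range 201 to 738). Pvalb-like nuclei held 13.7 ± 9.29 CPM and Sst-like nuclei 9.89 ± 24.1 CPM. The Sst-like mean rested on the library labelled P301S Cgas+/- 1, at 122 CPM, and was 5.39 ± 7.64 CPM (n = 25) without it. Vip-like nuclei were above Pvalb-like nuclei in 27 of 27 mice, by a median ratio of 42.5. Excitatory neuron-like nuclei (3.74 ± 1.35 CPM) and oligodendrocyte progenitor-like nuclei (3.39 ± 1.76 CPM) were near the bottom of the order, above T cell-like nuclei, where no Egfr UMI was counted in the 4 mice with enough of them, and among excitatory subtypes the dentate granule had the highest level, 9.75 ± 5.89 CPM. Of 62149 Egfr UMIs, 61.8% lay in astrocyte-like, 12.3% in Lamp5-like and 9.51% in Vip-like nuclei. An antisense gene, Egfros (ENSMUSG00000085091, chr11:16815431-16830702, minus strand), lies wholly inside Egfr, and since the use of strand in counting is not given in the sources used here, reads of the pair may not be told apart.

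Erbb3, the receptor that needs a partner to signal, was the most narrowly placed member. Oligodendrocyte-like nuclei held 98.7 ± 15.2 CPM (n = 27, range 70.2 to 130) and oligodendrocyte progenitor-like nuclei 31.5 ± 7.26 CPM, and these classes were separated from each other and from all that followed. Oligodendrocyte-like nuclei were higher in 27 of 27 mice, by a median ratio of 3.14 (range 1.89 to 5.54). No other class had a mean above 6.56 CPM, and no Erbb3 UMI was counted in Cajal-Retzius-like or T cell-like nuclei. Of 10712 Erbb3 UMIs, 85.8% lay in oligodendrocyte-like and 7.52% in oligodendrocyte progenitor-like nuclei.

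Erbb4, the principal neuregulin receptor of interneurons, was highest in inhibitory neuron-like nuclei, at 8140 ± 828 CPM (n = 27), with a lowest mouse of 6740, a median of 8040 and a highest of 10000 CPM. Oligodendrocyte progenitor-like nuclei (3000 ± 252 CPM, n = 27) were second and separated from choroid plexus-like (2150 ± 251 CPM, n = 10) and oligodendrocyte-like nuclei (2050 ± 256 CPM, n = 27), which were not separated from each other. Astrocyte-like nuclei held 445 ± 120 CPM. Excitatory neuron-like nuclei were last at 51.9 ± 15.7 CPM, below inhibitory neuron-like nuclei in 27 of 27 mice by a median ratio of 163. Among interneurons, Lamp5-like (12500 ± 1960 CPM), Pvalb-like (12100 ± 1350) and Vip-like nuclei (10300 ± 1580) were not separated, while Sst-like nuclei held 1840 ± 572 CPM (range 902 to 3060) and were below Pvalb-like nuclei in 26 of 26 mice, by a median ratio of 6.35. Within mice, Pvalb-like nuclei were above Vip-like nuclei in 26 of 27, and Lamp5-like above Pvalb-like nuclei in 16 of 27. Of 1288085 Erbb4 UMIs, 66.2% lay in inhibitory neuron-like, 15% in oligodendrocyte-like and 6.14% in oligodendrocyte progenitor-like nuclei.

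**Figure D1:**
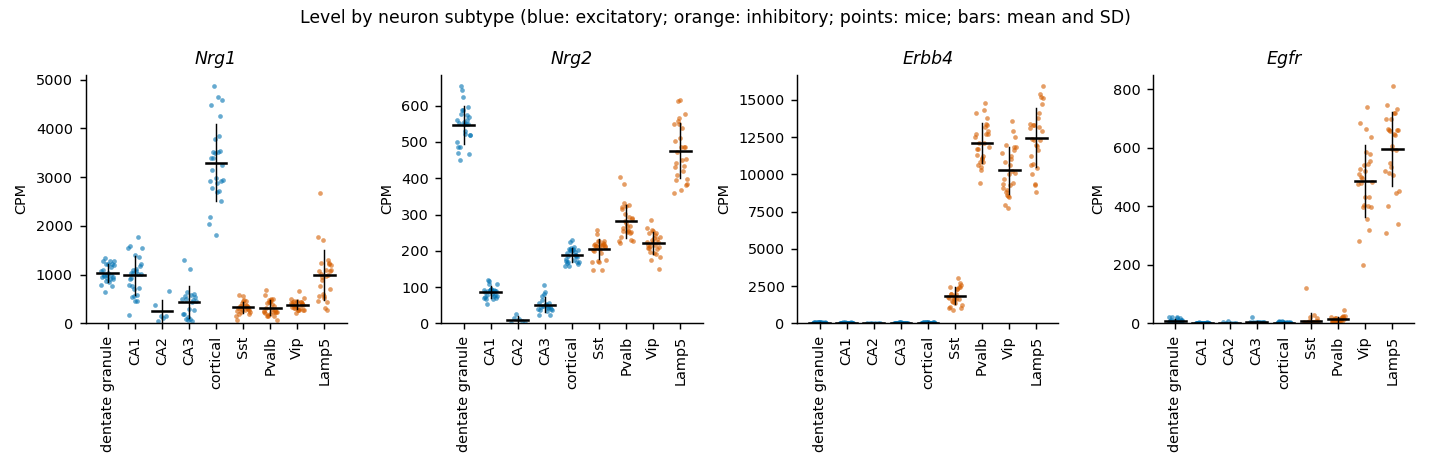
Mean CPM with SD over mice of Nrg1, Nrg2, Erbb4 and Egfr in the neuron subtypes. Nrg1 peaks in cortical-like nuclei (3300 ± 794 CPM), Nrg2 in dentate granule-like nuclei (547 ± 52.4 CPM), Egfr in Lamp5-like and Vip-like interneurons, and Erbb4 is lower in Sst-like nuclei than in the other interneuron subtypes.

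The share of nuclei with at least 1 UMI depends on depth, so nuclei were also thinned to 1000 UMIs each. Erbb4 was then detected in 99.6% of Pvalb-like nuclei (99.9% unthinned) and in 49.6% of Sst-like nuclei (85.5% unthinned), at median depths of 9090 and 8660 UMIs per nucleus. In excitatory neuron-like nuclei the share was 5.4% (34.2% unthinned), and in microglia-like nuclei, where background RNA is the reference, it was 22.7% (33.6%) at a median depth of 1590 UMIs. The excitatory share lay below the microglial one, and the part of background RNA in it was not tested. Thinned Egfr was found in 30.8% of astrocyte-like (63% unthinned), 37.7% of Lamp5-like (75.3%) and 31.8% of Vip-like nuclei (60.2%), against 1.21% of Pvalb-like (6.71%) and 0.402% of oligodendrocyte-like nuclei (0.808%). Thinned Erbb3 was found in 9.08% of oligodendrocyte-like nuclei (17%) and 2.92% of progenitor-like nuclei (10.7%), against 0.0356% of excitatory neuron-like nuclei (0.347%). For Nrg1 the shares were 80.7% in cortical-like (96%), 49.3% in dentate granule-like (86.6%) and 23.7% in microglia-like nuclei (34.5%).

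Some glial levels of the ligands lay inside the span of marker genes of other cells, which serve as a guide to background RNA. Summed over all mice, the Nrg1 level in microglia-like nuclei was 12.2% and that of Nrg3 17.2% of the excitatory level. Of the excitatory marker genes in the same nuclei, Slc17a7 (24.4%) was above both ligands. Camk2a (9.4%), Grin2a (7.08%) and Rbfox3 (3.51%) were below both. The same order held in oligodendrocyte-like nuclei, where Nrg1 stood at 10.5% and Nrg3 at 14.5%. Slc17a7 was there at 20.9%, Camk2a at 7.29%, Grin2a at 6.07% and Rbfox3 at 2.93%. The part of background RNA in the levels of these ligands in both classes was not tested. In oligodendrocyte progenitor-like nuclei Nrg1 stood at 47.4% and Nrg3 at 34.6% of the excitatory level, above Camk2a (4.25%) and Slc17a7 (12.3%). Erbb4 stood at 37.1% of the inhibitory level in progenitor-like and 25.3% in oligodendrocyte-like nuclei. Gad2 stood there at 1.59% and 2.28%, and Gad1 at 23.1% and 2.59%. In microglia-like nuclei the 3.17% of Erbb4 was close to the 2.17% of Gad2 and the 3.38% of Gad1. Erbb3 in progenitor-like nuclei, at 31.4% of the oligodendrocyte level, exceeded Mbp (4.52%) and Mog (1.41%).

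For each member, the genes most like it over 20 kinds of nuclei (11 classes other than excitatory and inhibitory neurons, and the 9 neuron subtypes) were found by Pearson correlation of mean log2(CPM + 1), among 16417 genes. These points share libraries and depth, and the values are a description. Nrg3 had the closest neighbours, among them Myt1l (r = 0.99), a neuronal transcription factor, and Scn2a (0.982), a neuronal sodium channel. Erbb3 was followed by the oligodendrocyte genes Plxnb3 (0.95), Gjc3 (0.948) and Bcas1 (0.947), of which Bcas1 was in a marker list. Nrg2 was nearest to Dpysl4 (0.902), Fam124a (0.901) and AC117232.1 (0.885), and Erbb4 to Dusp10 (0.867), the kainate receptor gene Grik1 (0.857) and Gm45768 (0.835). Egfr was nearest to its antisense gene Egfros (0.898), then to Atf5 (0.768) and Kirrel (0.755). Nrg1 had the loosest neighbours, Zfp853 (0.766), Kcnh7 (0.743) and Zmiz1os1 (0.741). Between members, r ranged from 0.51 for Nrg1 with Nrg2 to -0.39 for Nrg3 with Erbb3.

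The study asked what tau and the loss of Cgas change in hippocampal cells. Accordingly, 3 contrasts were tested by the quasi-likelihood test of edgeR on UMIs summed per mouse: the tau contrast set P301S Cgas+/+ against Cgas+/+, and within P301S mice the deletion contrast set Cgas-/- and the heterozygous contrast Cgas+/- against Cgas+/+. They were fitted in 9 classes and subtypes over 23 mice (22 for dentate granule-like and 17 for CA3-like nuclei). All 3 share the P301S Cgas+/+ libraries, so their values are set side by side and not counted as independent. Of 54 pairs of member and class, 45 passed the filter on low counts. Egfr in oligodendrocyte progenitor-like, CA1-like and CA3-like nuclei, and Erbb3 in inhibitory neuron-like, astrocyte-like and the 4 excitatory subtypes, were too low to test.

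No member was called in any of the 135 tests (edgeR, Benjamini-Hochberg adjusted p under 0.05 over all genes of a class). DESeq2 called 0 of 134 member tests with an adjusted p, and its smallest adjusted p was 0.225. The background of calls over all genes was also low. In the tau contrast 0.024% of genes were called in excitatory neuron-like nuclei, 0.00791% in inhibitory neuron-like, 0.00769% in astrocyte-like, 0.00808% in oligodendrocyte-like, 0.0223% in oligodendrocyte progenitor-like, 0.0078% in dentate granule-like, 0.00847% in CA1-like, 0.0113% in CA3-like and 0.00683% in cortical-like nuclei. In inhibitory neuron-like nuclei 0.00791% were called in the deletion contrast and 0.0158% in the heterozygous contrast, and in the other 8 classes and subtypes 0% were. At an unadjusted p under 0.05, 7 of the 135 member tests passed, against 5.45% of all tests of all genes in these contrasts. The CPM ranges of the groups compared overlapped for all 45 pairs in each contrast, where 0.466% of all genes did not overlap in the tau contrast, 0.395% in the deletion contrast and 0.184% in the heterozygous contrast.

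Of the members, 4 of 6 had in excitatory neuron-like nuclei a higher and 2 a lower fitted value in the tau contrast, with a median log2 fold change of 0.08 against -0.00 over all genes, and in the deletion contrast 2 were higher and 4 lower, with medians of -0.14 and 0.01. In inhibitory neuron-like nuclei the medians of the 5 members tested were 0.13 for tau and -0.08 for deletion, against 0.01 and 0.00 over all genes, and in astrocyte-like nuclei -0.27 and 0.02 against -0.00 and 0.00. These counts and medians are a description of values of which none was called.

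Each receptor is given here in a class where it was high, with Nrg2 in dentate granule-like nuclei. Erbb4 in inhibitory neuron-like nuclei was at 7960, 7790, 7240, 7570 and 10000 CPM in the libraries labelled Cgas+/+, and at 8310 ± 967, 7700 ± 629 and 8060 ± 755 CPM (n = 6 each) in P301S Cgas+/+, P301S Cgas+/- and P301S Cgas-/-. Its log2 fold change was 0.05 ± 0.129 (SE) in the tau contrast and -0.09 ± 0.122 in the deletion contrast (edgeR adjusted p = 1 and 0.998). All groups overlapped. Erbb3 in oligodendrocyte-like nuclei held 105 ± 11.5 CPM (n = 5) in Cgas+/+ and 99.5 ± 11.1, 98.6 ± 22.6 and 95.4 ± 17.2 CPM in the same 3 P301S groups, and its log2 fold changes were -0.09 ± 0.124, -0.08 ± 0.116 and -0.04 ± 0.116 in the tau, deletion and heterozygous contrasts (edgeR adjusted p = 0.924, 1 and 1). Egfr in astrocyte-like nuclei held 422 ± 49.1 CPM in Cgas+/+ and 394 ± 58, 426 ± 68.2 and 417 ± 57.2 CPM in the P301S groups. Nrg2 in dentate granule-like nuclei held 545 ± 26.2 CPM in Cgas+/+ and 548 ± 72.2 (n = 6), 566 ± 58 (n = 6) and 550 ± 55.4 CPM (n = 5) in the P301S groups. These members kept their levels within the spread of single groups, which does not show that they were equal: the 95% interval of the tau fold was 0.868 to 1.23 for Erbb4 in inhibitory neuron-like nuclei and 0.796 to 1.11 for Erbb3 in oligodendrocyte-like nuclei.

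**Figure D2:**
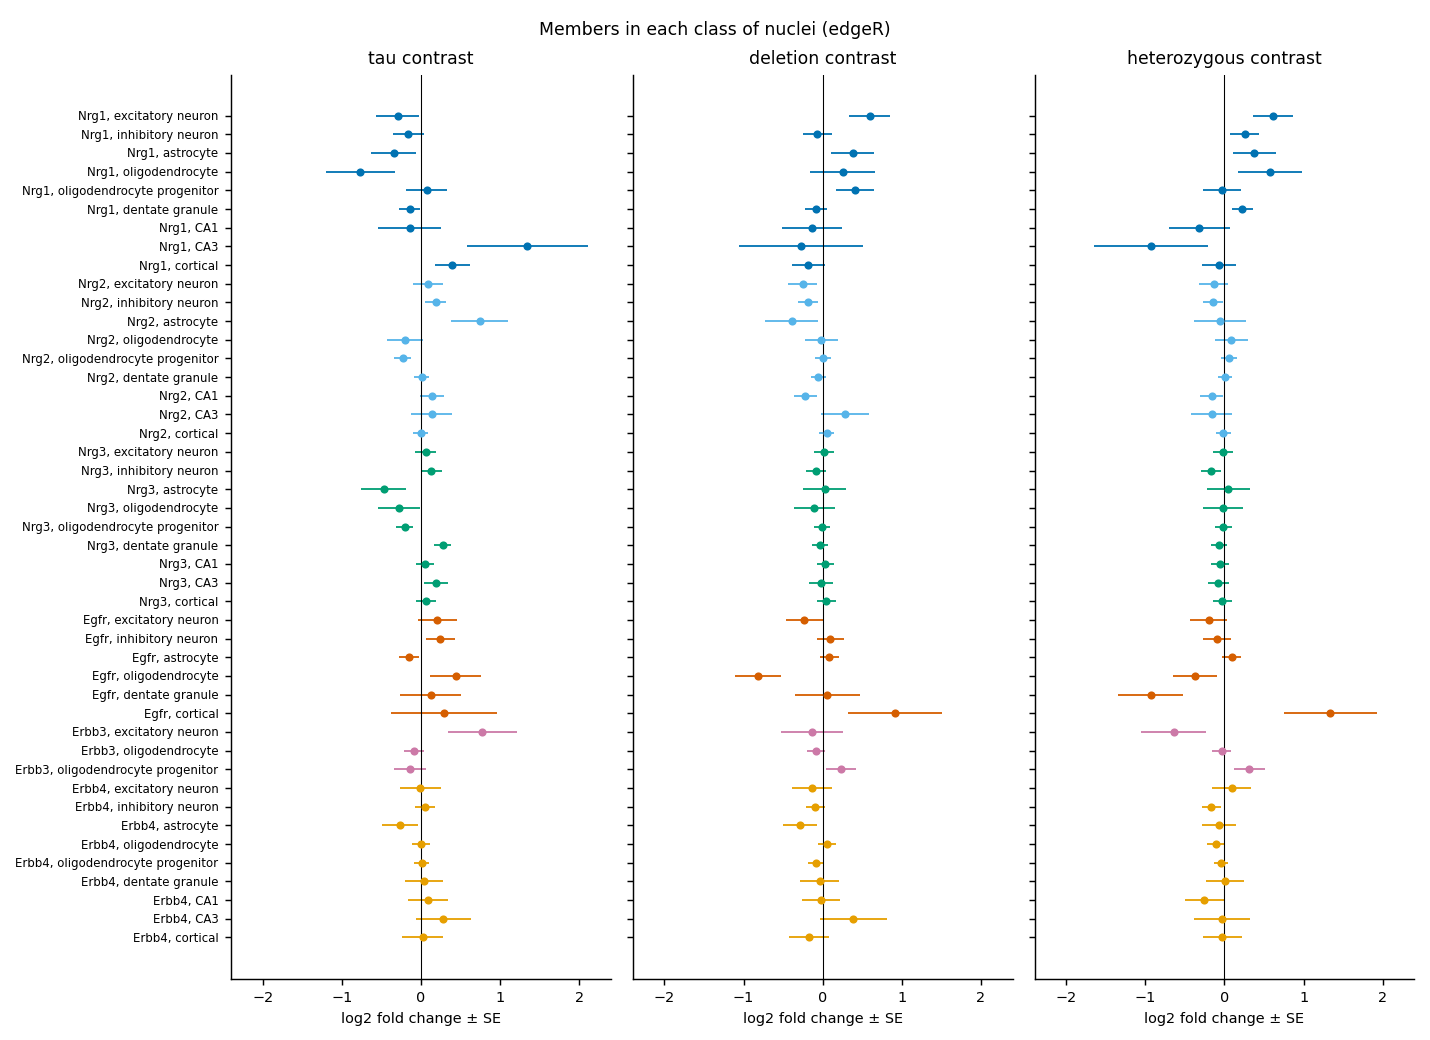
Log2 fold change with SE of each member in every class and subtype where it was tested, for the tau, deletion and heterozygous contrasts. No value passed the adjustment over all genes, and the widest errors belong to Nrg1 in CA3-like nuclei (1.35 ± 0.766 in the tau contrast) and Egfr in cortical-like nuclei (1.34 ± 0.587 in the heterozygous contrast).

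Among the 7 tests at an unadjusted p under 0.05, Nrg1 in excitatory neuron-like nuclei appeared in both Cgas contrasts. Libraries labelled Cgas+/+ held 1630, 1180, 2730, 2200 and 2770 CPM. Those labelled P301S Cgas+/+ ran from 1130 over a median of 1560 to 2720 CPM, P301S Cgas+/- from 1960 over 2670 to 3510 CPM and P301S Cgas-/- from 1460 over 2760 to 3710 CPM. The P301S Cgas+/- and P301S Cgas-/- groups were shifted upward, with 3 of 6 libraries in each above every P301S Cgas+/+ library, but the ranges overlapped. Nrg1 differed by 0.59 ± 0.257 on the log2 scale in the deletion contrast (unadjusted p = 0.0313, edgeR adjusted p = 0.3) and 0.61 ± 0.258 in the heterozygous contrast (unadjusted p = 0.0266, edgeR adjusted p = 0.353), where 14.1% and 11.8% of all genes had an unadjusted p under 0.05. For tau the value was -0.29 ± 0.268 (edgeR adjusted p = 1). Within the 3.1.0 libraries of the counting software (15 of 27) the 3 log2 fold changes were 0.76 ± 0.222, 0.75 ± 0.222 and -0.72 ± 0.236 in that order. Of the 12 libraries of version 3.0.2, all males, the fit held only replicates 1 and 2 of each of the groups compared. There the values were 0.26 ± 0.401, 0.37 ± 0.402 and 0.58 ± 0.402. The fitted tau direction was thus opposite between versions, with few mice per group in version 3.0.2. Subtype shares, given below, differed between these libraries too, and the cause was not tested.

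The makeup of the excitatory neuron-like class moved with the same groups. Nuclei of the dentate granule, CA1, CA2 and CA3 subtypes, together called hippocampal-like, made up 61.8% ± 31.7 of it in P301S Cgas+/+ (SD, n = 6, range 13.5 to 94.9), 32.1% ± 15.9 in P301S Cgas+/- and 29.4% ± 19.6 in P301S Cgas-/-. Libraries labelled Cgas+/+ had 49.1% ± 22 (n = 5). The rest was cortical-like, the named subtype in which Nrg1 is highest, or unnamed. Cortical-like nuclei made up 26% ± 24.2, 44% ± 5.26, 45.5% ± 13.9 and 37.1% ± 15.5 of the class in the same order. The unnamed excitatory nuclei, which had a mean Nrg1 level of 3620 ± 1070 CPM (n = 27), made up 12.2% ± 9.1, 23.9% ± 12.8, 25.1% ± 13.7 and 13.8% ± 7.93. All clusters of these unnamed nuclei scored highest for the cortical subtype but did not meet the naming rule. A class sum mixes its subtypes, so the next values are not independent of the subtype levels above and are a description with no test. Over the 27 mice, Nrg1 CPM in excitatory neuron-like nuclei was lower where the hippocampal-like share was higher, with Pearson's r = -0.91 and Spearman's rho = -0.92. Without the 2 mice farthest from the median share r was -0.90, and it was -0.94 within the 12 libraries of version 3.0.2 and -0.88 within the 15 of version 3.1.0. In version 3.0.2 the share was 13.5% and 52.1% in P301S Cgas+/+ libraries and 55.8% and 79.8% in Cgas+/+ libraries. In version 3.1.0 it was 78.7%, 94.9%, 90.2% and 41.6% in P301S Cgas+/+ and 18.8%, 43.4% and 47.7% in Cgas+/+. The part of this share in the opposite tau values of the versions was not tested. Nrg2, whose level is highest in dentate granule-like nuclei, was higher with that share (r = 0.67, rho = 0.69), with r = 0.65 without the 2 farthest mice, 0.76 in version 3.0.2 and 0.64 in version 3.1.0. For Nrg3 r was -0.41, for Erbb4 -0.44, for Egfr 0.16 and for Erbb3 0.12.

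**Figure D3:**
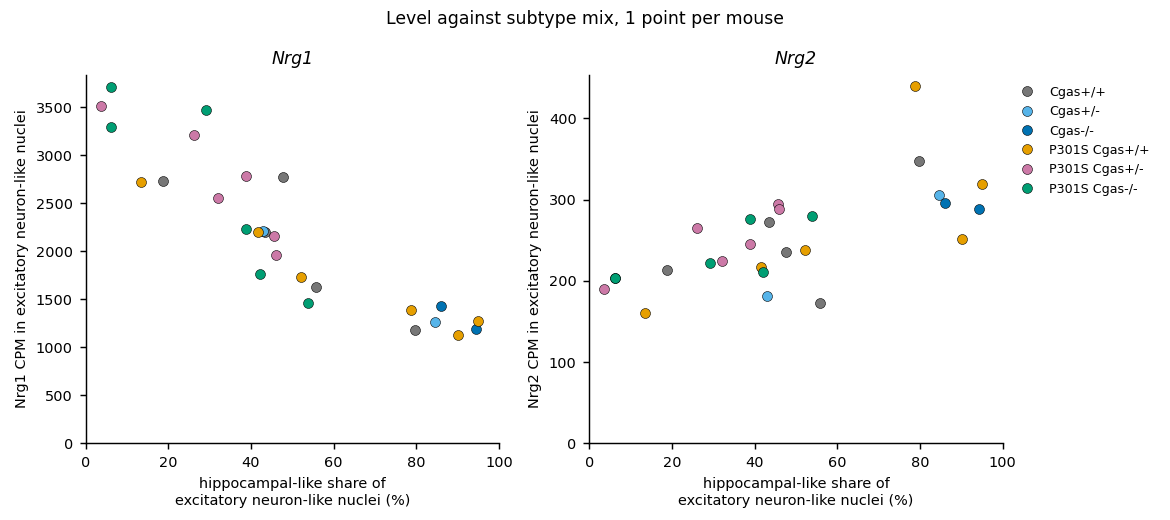
CPM of Nrg1 and of Nrg2 in excitatory neuron-like nuclei of each mouse against the percentage of those nuclei that were hippocampal-like. Each point is 1 mouse, coloured by group, and Nrg1 falls (r = -0.91) while Nrg2 rises (r = 0.67) with the hippocampal-like share.

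Within subtypes, no Nrg1 difference between the Cgas groups exceeded its error by as much in the fits with the filter on low counts. In cortical-like nuclei Nrg1 was at 2030, 2190, 2880, 2700 and 3850 CPM in libraries labelled Cgas+/+. It averaged 3620 ± 806, 3530 ± 596 and 3210 ± 924 CPM (n = 6 each) in P301S Cgas+/+, P301S Cgas+/- and P301S Cgas-/-, with log2 fold changes of 0.40 ± 0.222 for tau, -0.18 ± 0.21 for deletion and -0.07 ± 0.209 for heterozygosity (edgeR adjusted p = 1 each). The groups overlapped, and the deletion and heterozygous means lay below the P301S Cgas+/+ mean. In dentate granule-like nuclei the deletion and heterozygous values were -0.08 ± 0.136 and 0.23 ± 0.13, and in CA1-like nuclei -0.13 ± 0.38 and -0.32 ± 0.382. With all genes of at least 1 UMI, the heterozygous value in CA3-like nuclei was -1.01 and called (edgeR adjusted p = 1.37e-05), as 1 of 391 genes called. It was 0.06 without sex as covariate. The CA3-like means ran the other way, at 463 CPM in P301S Cgas+/- and 411 in P301S Cgas+/+ (n = 5 each). With the hippocampal-like share as a term in the fit, the excitatory values were -0.01 ± 0.184 for the deletion, 0.09 ± 0.178 for the heterozygous and -0.04 ± 0.166 for the tau contrast. From hippocampal-like nuclei alone they were 0.10 ± 0.2, 0.02 ± 0.2 and -0.14 ± 0.21.

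**Figure D4:**
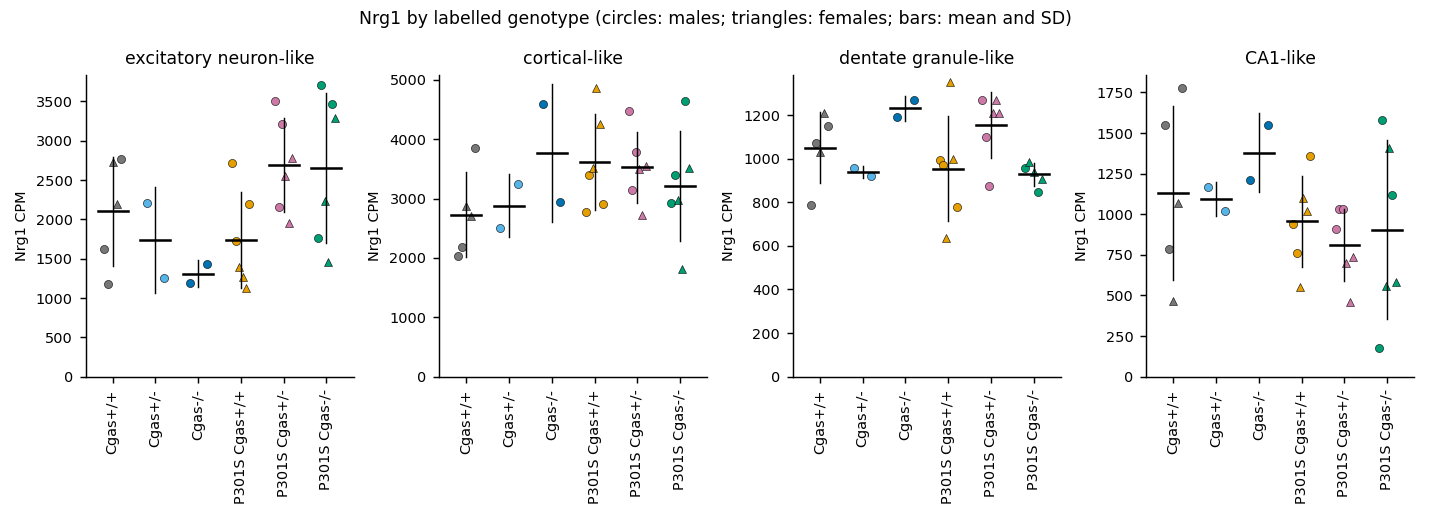
Nrg1 CPM of each mouse by group in excitatory neuron-like, cortical-like, dentate granule-like and CA1-like nuclei, with circles for males, triangles for females and bars for the mean and SD. The excitatory means of P301S Cgas+/- (2700 ± 598 CPM) and P301S Cgas-/- (2650 ± 958) lie above that of P301S Cgas+/+ (1740 ± 614), while in cortical-like nuclei the 3 means are 3530 ± 596, 3210 ± 924 and 3620 ± 806 CPM.

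The other 5 tests with an unadjusted p under 0.05 concerned Egfr, Nrg2 and Nrg3. Nrg3 in dentate granule-like nuclei was at 5110, 5330, 4800, 4630 and 5600 CPM in libraries labelled Cgas+/+ and ran from 5100 over a median of 5950 to 6810 CPM in P301S Cgas+/+. The transgenic group was shifted upward with overlap, by a log2 fold change of 0.27 ± 0.104 (unadjusted p = 0.0145, edgeR adjusted p = 1, in a contrast where 4.21% of genes had an unadjusted p under 0.05). The P301S Cgas+/- and P301S Cgas-/- means, 5940 ± 386 and 5990 ± 544 CPM, were close to the P301S Cgas+/+ mean of 6000 ± 669 CPM. Nrg2 in oligodendrocyte progenitor-like nuclei was at 238, 274, 326, 273 and 288 CPM in Cgas+/+ and at 185 to 259 CPM with a median of 252 in P301S Cgas+/+. Its log2 fold change was -0.23 ± 0.105 (unadjusted p = 0.0359, edgeR adjusted p = 0.528), against 8.9% of genes. Nrg2 in astrocyte-like nuclei went the other way without reaching that limit, with 72, 135, 93.7, 65.9 and 91.4 CPM in Cgas+/+ and 74.4 to 198 CPM in P301S Cgas+/+, 5 of whose 6 libraries were above every Cgas+/+ library (log2 fold change 0.74 ± 0.357, unadjusted p = 0.0512, edgeR adjusted p = 0.43). Other wide gaps between means in the tau contrast were those of Nrg1 in oligodendrocyte-like nuclei, at 201 ± 126 CPM in P301S Cgas+/+ and 324 ± 180 in Cgas+/+ (-0.77 ± 0.435, edgeR adjusted p = 0.785), and Nrg3 in astrocyte-like nuclei, at 489 ± 183 and 665 ± 232 CPM (-0.47 ± 0.288, edgeR adjusted p = 0.546), with overlap in both. Within the few libraries of version 3.0.2 in these groups the log2 fold changes were 0.98 and 0.26, of opposite sign. Summed over all mice, these levels were 10.5% and 8.4% of the excitatory level. In the same classes Slc17a7 was higher, at 20.9% and 12.4%, while Camk2a (7.29% and 4.86%), Grin2a and Rbfox3 were lower. Excitatory neuron-like nuclei made up 42.7% ± 8.17 of kept nuclei in Cgas+/+ and 29.6% ± 8.02 in P301S Cgas+/+. The part of background RNA in these gaps was not tested.

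The 3 Egfr tests concerned classes in which Egfr is scarce. In oligodendrocyte-like nuclei the libraries labelled P301S Cgas+/+ held 1.74 to 9.66 CPM with a median of 5.01 (140 UMIs in all) and those labelled P301S Cgas-/- 2.17 to 4.6 CPM with a median of 2.87 (79 UMIs). The deletion log2 fold change was -0.82 ± 0.288 (unadjusted p = 0.009, edgeR adjusted p = 1, against 4.47% of genes). In dentate granule-like nuclei Egfr ran from 3.55 to 23.2 CPM in P301S Cgas+/+ and from 3.15 to 8.7 CPM in P301S Cgas+/-, with a log2 fold change of -0.93 ± 0.409 (unadjusted p = 0.0338, edgeR adjusted p = 0.989, against 4.68% of genes). In cortical-like nuclei it ran from 0 to 4.42 CPM in P301S Cgas+/+ and from 0.544 to 9 CPM in P301S Cgas+/-, with a log2 fold change of 1.34 ± 0.587 (unadjusted p = 0.033, edgeR adjusted p = 0.701, against 6.43% of genes). The heterozygous values of Egfr thus had opposite signs in these subtypes, both with overlapping groups.

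The groups of 2 mice without P301S entered a second fit of all 27 mice. Nrg1 in excitatory neuron-like nuclei was at 1190 and 1430 CPM in libraries labelled Cgas-/- and at 2210 and 1260 CPM in those labelled Cgas+/-. The difference between Cgas-/- and Cgas+/+ was -0.77 ± 0.394 on the log2 scale (edgeR adjusted p = 0.58), and 0% of genes were called in this comparison in any class. Both Cgas-/- libraries and Cgas+/+ 1 and 2 (1630 and 1180 CPM) were of version 3.0.2, where these values overlapped, while Cgas+/+ 3, 4 and 5 (2730, 2200 and 2770 CPM) were of version 3.1.0, so the version moves with this difference and with the interaction, and its part was not tested. The deletion effect differed with the transgene by 1.36 ± 0.476 (interaction, unadjusted p = 0.00891, edgeR adjusted p = 0.111), in a class where 0.54% of genes were called and 20.4% had an unadjusted p under 0.05, and 0% were called in the other 8. The 2 Cgas-/- libraries held 86% and 94.4% hippocampal-like nuclei, and with that share as a term the interaction was -0.15 ± 0.339. In astrocyte-like nuclei Nrg1 averaged 141 ± 16.3 CPM (n = 2) in Cgas-/- and 305 ± 121 CPM (n = 5) in Cgas+/+, a log2 difference of -1.07 ± 0.403 (unadjusted p = 0.014, edgeR adjusted p = 1, against 2.54% of genes), with an interaction of 1.45 ± 0.48 (unadjusted p = 0.00602, edgeR adjusted p = 0.995, against 4.65%). Nrg1 in astrocyte-like nuclei was at 12.4% of its excitatory level. Slc17a7 was there at 12.4%, Camk2a at 4.86%, Grin2a at 3.47% and Rbfox3 at 1.72%. The part of background RNA in this Nrg1 result was not tested.

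The other genes of the pathway were listed by role, and results are given for 5 roles, in which none was called in the tau, deletion or heterozygous contrast. Each count repeats the same few genes over up to 9 classes and subtypes, and the tau contrast shares the P301S Cgas+/+ libraries with the others with opposite sign, so opposite counts in them are no separate result. Of 29 tests of other EGF-family ligands in the tau contrast, 19 were higher, 10 lower and 0 called (2 at an unadjusted p under 0.05). Ereg, Areg and Epgn, further EGFR ligands, were too low to test in every class. Proteases that process the ligands were higher in 33 and lower in 10 of 43 tests in the tau contrast, and higher in 10 and lower in 33 in the deletion contrast, again with 0 called. At an unadjusted p under 0.05 were 4 and 4 of these tests of 5 genes, beside the 5.45% of all tests given above. Bace1, the beta-secretase that cleaves neuregulin precursors, had the smallest p among proteases in the deletion and heterozygous contrasts, with log2 fold changes in cortical-like nuclei of -0.29 ± 0.0978 for deletion and -0.32 ± 0.0976 for heterozygosity (edgeR adjusted p = 0.65 and 0.496). Adam19, another protease, had -1.57 ± 0.444 in astrocyte-like nuclei for Cgas-/- against Cgas+/+ without the transgene (edgeR adjusted p = 1). Negative regulators were higher in 51 of 69 tests in the tau contrast, among them Ptpn12, a tyrosine phosphatase, in astrocyte-like nuclei (0.49 ± 0.135, edgeR adjusted p = 0.213), while Lrig3, a leucine-rich repeat protein, in oligodendrocyte progenitor-like nuclei had -0.69 ± 0.207 (edgeR adjusted p = 0.284), and -0.67 with a call when all genes of at least 1 UMI were tested (edgeR adjusted p = 0.043). That setting called 132 genes in this class and contrast. Adaptors and effectors were higher in 80 of 126 tests and synaptic partners in 17 of 49 in the tau contrast, with 0 called. Lrp4, a receptor for agrin, had 0.47 ± 0.146 in oligodendrocyte progenitor-like nuclei in the heterozygous contrast (edgeR adjusted p = 1).

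Stat5b, a transcription factor activated by tyrosine kinase signaling, was the only gene of the list called in the 5 comparisons of the edgeR fits with the filter on low counts. The call was in the class and comparison where 0.54% of all genes were called. In excitatory neuron-like nuclei Stat5b held 27.3 ± 8.89 CPM (n = 5, range 19.5 to 40.8) in libraries labelled Cgas+/+ and 8.71 ± 2.99 CPM (n = 2, 6.59 and 10.8) in those labelled Cgas-/-, both of version 3.0.2. Those labelled Cgas+/- held 12.4 and 24.7 CPM. With the transgene it held 22.8 ± 13 CPM (range 9.93 to 45.2) in P301S Cgas+/+, 36.8 ± 1.19 (36.1 to 39.2) in P301S Cgas+/- and 38.8 ± 8.7 (29.1 to 51.5) in P301S Cgas-/- (n = 6 each). The Cgas-/- libraries lay below all Cgas+/+ libraries, while the P301S groups overlapped. The interaction was 2.47 ± 0.525 on the log2 scale (edgeR adjusted p = 0.0444), the deletion contrast was 0.78 ± 0.262 (adjusted p = 0.223) and the difference without P301S was -1.70 ± 0.441 (adjusted p = 0.445, and 0.0134 with DESeq2). DESeq2 called 100 genes for that difference in this class. The interaction was 0.99 with the hippocampal-like share as a term and 0.62 in hippocampal-like nuclei alone, and it was called in neither. It also lost its call without either Cgas-/- library (2.20 without the first, 2.84 without the second) and without Cgas+/+ 3 (2.33) or Cgas+/+ 4 (2.45).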

How the data were processed

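Deposited files held raw UMI counts per gene and nucleus of each library, which the authors made with Cell Ranger 3.1.0 against mm10 (submitters' processing notes, which also name Seurat 3.0), counting pre-mRNA reads. File headers name software version 3.0.2 in 12 libraries and 3.1.0 in 15. No column of other samples was present (0). The 27 libraries held 46091490 to 79484316 UMIs. Barcodes were dropped under 200 or over 4000 genes or above 5% of UMIs from mitochondrial genes, and a share of 0.8% per 1000 barcodes with the highest Scrublet scores was removed as doublets (16429 nuclei). Nuclei were clustered with scanpy 1.11.5 (2000 variable genes, 30 components, 15 neighbours, resolution 1) and named where at least 3 markers, and at least 50% of the list, were in 10% or more of the nuclei and above a log2 fold of 0.5. Clusters stayed unnamed where another class scored over 50% of the best, where mitochondrial genes or more markers of another class were among the 10 leading genes, or where shallow nuclei had no leading marker. The naming rule was revised after cluster names were seen and before any group comparison.

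UMIs were summed per mouse and class (at least 20 nuclei) and tested with edgeR 4.0.16 (quasi-likelihood, TMM, filter on low counts, sex as covariate, R 4.3.3), with Benjamini-Hochberg adjustment at 0.05. CPM were computed here from the deposited counts. SE of a fold change and its 95% interval come from the same fit. Alternatives were DESeq2 1.42.0, other filters, covariates and sets of mice. Scripts were tested on simulated data. Each library is 1 mouse. Intervals on counts cover counting error only. Named genes were the members, the 3 genes most alike to each and, of the pathway list, every gene called and otherwise the 2 with the smallest p per contrast. Of the genes so named, 1 is not reported here. The members and lists were chosen with earlier results of these data known. Gene positions come from GENCODE vM21, in which 30934 of 31053 identifiers were found.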

Additional observations from a re-analysis of the deposited data

Results flagged for a closer look

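In groups of 4 to 10 libraries, 10 of 176 sets of CPM values held 1 library whose gap to its nearest neighbour passed Dixon's 95% limit (5.68%), where chance flags about 1 in 20. Nrg1 in the library labelled P301S Cgas+/- 1 was at 853 CPM in inhibitory neuron-like nuclei (379 to 556 in the others of its group) and at 597 CPM in oligodendrocyte-like nuclei (138 to 306), and 26.8% of that library's nuclei stayed unnamed. Nrg1 in CA3-like nuclei was at 80.4 CPM in P301S Cgas+/+ 3, against 431 to 567 in the others, and 52.6% of its nuclei stayed unnamed. The library labelled Cgas+/+ 5 stood above its group for Nrg3 in CA1-like nuclei (5890 CPM against 5010 to 5230), Nrg3 in cortical-like nuclei (7560 against 6170 to 6380) and Erbb4 in inhibitory neuron-like nuclei (10000 against 7240 to 7960). Nrg2 in dentate granule-like nuclei was low in Cgas+/+ 1, at 499 CPM against 550 to 561. P301S Cgas-/- 6 was high for Egfr in astrocyte-like nuclei (525 CPM against 370 to 424) and low for Erbb4 in dentate granule-like nuclei (32.1 against 56.2 to 63.6). Erbb4 in cortical-like nuclei was high in P301S Cgas-/- 4, at 70.4 CPM against 38.8 to 49.1.

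The effect of the Cgas deletion on Stat5b in excitatory neuron-like nuclei differed with the P301S transgene by an interaction of 2.47 on the log2 scale (edgeR adjusted p = 0.0444), which rests on 2 libraries labelled Cgas-/- without the transgene. It was 0.99 with the hippocampal-like share as a term and 0.62 in hippocampal-like nuclei alone (edgeR adjusted p = 1 each), and the call was also lost without either Cgas-/- library or without Cgas+/+ 3 or 4.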

How the results depend on the processing

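No paired analysis was possible because replicate numbers were given in accession order. Software version, the 2 libraries with many unnamed nuclei, the hippocampal-like share and the 27-mouse alternatives were chosen after seeing the data. A member's fold change smaller than its SE as reported was treated as having no direction to lose. Of 1485 log2 fold changes of members recomputed under settings other than leaving out 1 mouse, 130 had the opposite sign, 25 of them with a direction to lose and the rest without, and of 3666 with 1 mouse left out 215 and 2. The fits within version 3.0.2 held at most replicates 1 and 2 of each group, all males. Within version 3.0.2, the tau value changed sign for Nrg1 in excitatory neuron-like (0.58), astrocyte-like (0.56), oligodendrocyte-like (0.98) and dentate granule-like nuclei (0.03), Nrg3 in oligodendrocyte-like (0.43) and astrocyte-like nuclei (0.26) and Nrg2 in inhibitory neuron-like nuclei (-0.15). There the deletion value changed sign for Nrg2 in excitatory neuron-like (0.03), astrocyte-like (0.28) and CA1-like nuclei (0.11) and Erbb3 in progenitor-like nuclei (-0.17), and the heterozygous value for Erbb4 (0.03) and Nrg2 (0.09) in inhibitory neuron-like and Nrg2 in CA1-like nuclei (0.01). With the hippocampal-like share as a term, excitatory neuron-like values changed sign for the deletion in Nrg1 (-0.01) and Nrg2 (0.12), the difference without P301S in Nrg1 (0.12) and Nrg2 (-0.12) and the interaction in Nrg1 (-0.15) and Nrg2 (0.25). In hippocampal-like nuclei alone they did for the difference without P301S in Nrg1 (0.27) and Egfr (-0.15) and the interaction in Nrg1 (-0.16) and Egfr (0.09). Without sex, heterozygous Nrg1 in CA3-like nuclei was 0.06. Without 1 Cgas-/- mouse, the Egfr interaction in inhibitory neuron-like nuclei ranged from -0.57 to 0.02 and the Nrg2 difference without P301S in CA1-like nuclei from -0.13 to 0.51. The causes were not tested. The Nrg1 interaction in excitatory neuron-like nuclei was called with DESeq2 (1.35, DESeq2 adjusted p = 0.0493) and without Cgas+/+ 2 (1.59). These settings called 1111 and 1242 genes there, against 95 in the reported fit. With all genes of at least 1 UMI, Nrg1 in CA3-like nuclei was called in the tau (1.37) and heterozygous contrasts (-1.01), with edgeR adjusted p = 5.83e-08 and 1.37e-05. That setting called 95 and 391 genes there, against 1 and 0 with the filter on low counts. These fitted values differ from the group means, which were 411 CPM in P301S Cgas+/+ (n = 5), 342 in Cgas+/+ (n = 4) and 463 in P301S Cgas+/- (n = 5), higher and not lower in the last. The 84 CPM levels moved by less than 1 SD after thinning, and 74 of 84 shares of nuclei moved. Small UMI counts limit Egfr outside astrocyte-like, fibroblast-like, Lamp5-like and Vip-like nuclei, and Erbb3 outside the oligodendrocyte lineage. For Egfr, median depth was no lower in Pvalb-like nuclei (9090 UMIs per nucleus) than in Lamp5-like nuclei (8510).

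Counts of genes called moved by over 1.5 times in 70 of 295 values. With DESeq2 the tau contrast called 10 genes in excitatory neuron-like, 162 in astrocyte-like, 6 in oligodendrocyte-like, 45 in oligodendrocyte progenitor-like, 8 in dentate granule-like, 2 in CA1-like and 4 in cortical-like nuclei, against 4, 1, 1, 2, 1, 1 and 1. It called 126, 8, 2 and 18 in the deletion contrast in excitatory neuron-like, inhibitory neuron-like, astrocyte-like and cortical-like nuclei (0, 1, 0 and 0 with edgeR) and 102, 8, 1 and 1 in the heterozygous contrast (0, 2, 0 and 0). For the difference without P301S it called 100 in excitatory neuron-like nuclei, and for the interaction 1111 there (95 with edgeR), 24 and 5 in inhibitory neuron-like and astrocyte-like nuclei. With all genes of at least 1 UMI, the tau contrast called 132, 2, 2, 95 and 3 in oligodendrocyte progenitor-like, dentate granule-like, CA1-like, CA3-like and cortical-like nuclei, the deletion contrast 7, 3 and 43 and the heterozygous contrast 4, 3 and 391 in inhibitory neuron-like, oligodendrocyte progenitor-like and CA3-like nuclei. Without sex as covariate, the deletion contrast called 0 in inhibitory neuron-like nuclei and the tau contrast 0 in astrocyte-like, oligodendrocyte-like and progenitor-like nuclei. From the 2 groups compared alone, the tau contrast called 2, 0, 0 and 15 in excitatory neuron-like, astrocyte-like, oligodendrocyte-like and progenitor-like nuclei, and in inhibitory neuron-like nuclei the deletion contrast called 0 and the heterozygous contrast 4. With fewer doublets removed, these called 0 and 1. Within version 3.0.2, the tau contrast called 1, 2, 0, 0 and 7 in excitatory neuron-like, inhibitory neuron-like, astrocyte-like, oligodendrocyte-like and dentate granule-like nuclei, the deletion contrast 0 and 7 and the heterozygous contrast 0 and 20 in inhibitory neuron-like and dentate granule-like nuclei. CA3-like nuclei could not be fitted there. Within version 3.1.0, the tau contrast called 8, 2, 0, 1, 5, 2 and 0 in excitatory neuron-like, inhibitory neuron-like, oligodendrocyte-like, progenitor-like, dentate granule-like, CA1-like and CA3-like nuclei, the deletion contrast 0 and 3 and the heterozygous contrast 0 and 2 in inhibitory neuron-like and astrocyte-like nuclei. Without the 2 libraries with many unnamed nuclei, the deletion contrast called 0 and 1 in inhibitory neuron-like and cortical-like nuclei, the heterozygous contrast 0 in inhibitory neuron-like and the tau contrast 0 in oligodendrocyte-like and progenitor-like nuclei. In hippocampal-like nuclei alone the tau contrast called 2 and the interaction 0, and with the hippocampal-like share as a term the interaction called 0. With 1 mouse left out, tau counts ranged from 4 to 5 in excitatory neuron-like, 0 to 12 in astrocyte-like, 0 to 1 in oligodendrocyte-like, 0 to 13 in progenitor-like, 1 to 7 in dentate granule-like, 0 to 2 in CA3-like and 1 to 3 in cortical-like nuclei, deletion counts from 0 to 1 in excitatory neuron-like, 0 to 4 in inhibitory neuron-like and 0 to 1 in cortical-like nuclei, heterozygous counts from 0 to 5 in excitatory neuron-like, 0 to 4 in inhibitory neuron-like and 0 to 1 in oligodendrocyte-like and CA3-like nuclei, and interaction counts from 0 to 1242 in excitatory neuron-like and 0 to 1 in inhibitory neuron-like nuclei. Without either Cgas-/- library the excitatory interaction called 0, and without Cgas+/+ 1, 2, 3, 4 and 5 it called 263, 1242, 1, 1 and 87.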
